A study of Mus musculus with 93 samples.

Results

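The genes described here encode the transforming growth factor beta (TGF-beta) and activin ligands of the liver and the proteins that release, receive, restrain or answer their signal: the ligands Tgfb1, Tgfb2, Tgfb3, Inhba and Inhbe, the activator Thbs1, the receptors Tgfbr1 and Tgfbr2, the inhibitor Smad7 and the target Tgfbi. They were chosen by symbol, and all 10 were found as unique rows among the 53465 genes of the count table. All 10 also passed the filter on low counts that left 19110 genes for testing.

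Liver RNA of 93 male mice was sequenced to ask how the genetic background shapes the response to a metabolic challenge. The mice were of 7 inbred strains, named PWK/PhJ, CAST/EiJ, WSB/EiJ, 129S1/SvImJ, DBA/2J, A/J and C57BL/6J. Every mouse was kept at 30°C (thermoneutrality) from 6 wk of age. From 7 wk of age, mice were fed a western diet (WD, 40% of energy from fat) or a matched control diet (CD, 10% of energy from fat), and livers were taken at the age of 24 wk, when the diet had lasted 17 wk. The 14 groups held 5 to 8 mice, each mouse was 1 library, and the mice of a strain came in 2 or 3 cohorts.

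TGF-beta ligands are secreted in a latent complex and have to be released before they can bind. The ligand then brings a type II receptor together with a type I receptor, and the type I receptor phosphorylates Smad2 and Smad3, which enter the nucleus with Smad4. Activins, dimers of inhibin beta subunits, reach the same Smads through receptors of their own. In the liver, TGF-beta is best known for driving stellate cells to make collagen and for restraining the growth of hepatocytes.

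Libraries held 40020424 to 49894856 reads on genes, with a median of 46618609, so that genes with few reads carried more counting error. Levels are given as counts scaled to the TMM-adjusted size of each library (CPM), on the linear scale, and differences between diets as log2 fold changes, WD minus CD, with their standard error (SE) and an adjusted p from limma-voom. A gene was called at an adjusted p below 0.05. Hepatocyte markers summed to 57400 CPM or more in every library, as a liver should give. The library that stood farthest from its own group was C57BL/6J CD replicate 2 (root mean square distance of 0.868 on the log2 scale, against a median of 0.366), followed by C57BL/6J WD replicate 3 (0.621). In the first, markers of monocytes and macrophages summed to 954 CPM (141 to 391 CPM in the other CD mice) and markers of cholangiocytes to 68.8 CPM (9.07 to 22.2 CPM). Stellate cell (273 CPM, 185 to 227 CPM) and mesothelium markers (10.9 CPM, 3.54 to 6.79 CPM) were also above the other CD mice. Kupffer cell (217 CPM, 490 to 642 CPM) and sinusoidal endothelium markers (195 CPM, 271 to 318 CPM) were below them. In the second, the sum of monocyte and macrophage markers was 895 CPM (194 to 523 CPM in the other WD mice). That of cholangiocytes was 49.7 CPM (10.8 to 14.3 CPM). Stellate cell (276 CPM, 176 to 261 CPM) and mesothelium markers (9.59 CPM, 4.42 to 8.02 CPM) were above the other WD mice. So were those of T cells (7.27 CPM, 2.48 to 6.34 CPM) and B cells (6.9 CPM, 2.46 to 5.98 CPM). Sinusoidal endothelium markers were below them (203 CPM, 265 to 305 CPM). Both mice belonged to cohort 1 of that strain, and results in C57BL/6J that rest on them are given with and without them. The share of unmapped reads did not overlap between diets in PWK/PhJ (2.22% to 4.24% on CD and 5.48% to 8.73% on WD) and overlapped in the other strains, and its part in the PWK/PhJ results was not tested. Since these are whole livers, fewer cells of a type and less RNA per cell cannot be told apart.

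The ligand genes differed in the sequence before their start sites. The windows of 250 bases before the RefSeq start (GRCm38.p6) are shown for Inhba, which was downregulated on WD in 6 strains, for Tgfb2, which with all mice was called in PWK/PhJ, and for Tgfb1, which was upregulated in 3 strains by smaller values. Capitals mark TATAAA in Inhba (chr13:16011601-16011850, plus strand) and Tgfb2 (chr1:186705990-186706239, minus strand), and also CACGTG (an E-box) and TGACG (a cAMP response half-site, here on the other strand) in Tgfb2. In Tgfb1 (chr7:25686752-25687001, plus strand) they mark GGGCGG (a GC box) on either strand. Each window ends just before the first base of the gene: Inhba (ENSMUSG00000041324) spans chr13:16011851-16031621, Tgfb2 (ENSMUSG00000039239) chr1:186622792-186705989 and Tgfb1 (ENSMUSG00000002603) chr7:25687002-25705077. Marked matches did not overlap one another.
Inhba: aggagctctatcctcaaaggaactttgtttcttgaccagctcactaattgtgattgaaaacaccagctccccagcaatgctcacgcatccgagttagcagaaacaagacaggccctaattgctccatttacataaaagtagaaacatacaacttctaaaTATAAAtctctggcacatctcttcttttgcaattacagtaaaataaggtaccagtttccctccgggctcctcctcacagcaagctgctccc
Tgfb2: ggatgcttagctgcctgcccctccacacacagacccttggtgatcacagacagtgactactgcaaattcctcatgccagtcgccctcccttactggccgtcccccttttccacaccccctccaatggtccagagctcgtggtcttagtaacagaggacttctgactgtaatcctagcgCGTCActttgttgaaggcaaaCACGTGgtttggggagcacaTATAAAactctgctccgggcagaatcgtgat
Tgfb1: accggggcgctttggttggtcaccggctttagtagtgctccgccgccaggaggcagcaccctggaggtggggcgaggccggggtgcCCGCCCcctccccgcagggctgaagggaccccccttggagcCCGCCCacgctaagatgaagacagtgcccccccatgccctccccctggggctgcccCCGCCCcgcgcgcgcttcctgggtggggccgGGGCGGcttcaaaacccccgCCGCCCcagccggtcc
The Inhba window had a GC content of 43.2% and 3 CpG dinucleotides, that of Tgfb2 53.6% and 8, and that of Tgfb1 75.2% and 21, beside a median GC content of 52.4% over the 32851 promoter windows of the same table. TATAAA lay 91 bases before the start of Inhba and 31 bases before that of Tgfb2, and 12.4% of all windows hold it on either strand. CACGTG (6.02% of windows) and TGACG (17.8%) began 51 and 72 bases before the start of Tgfb2. The Tgfb1 window held GGGCGG 5 times, and 32.7% of windows hold it at least 1 time. CAGACA, a motif read by Smads that is not marked here, was found in the Tgfb2 window and at the downstream start of Tgfbr1, and in 17.1% of windows. These are matches of letters and were not tested for binding. Of the 10 genes, 7 had an entry in the promoter table, among them Inhbe, whose window lies within an annotated exon and is not printed.

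At least 1 of these genes was called by limma-voom in 6 of the 7 strains. The genes called were not the same in each strain (plot of the log2 fold changes). The only call in WSB/EiJ, that of Inhba, was lost without WSB/EiJ CD replicate 6 (limma-voom adjusted p = 0.074). Of 70 comparisons of a gene in a strain, 23 were called, 15 of them higher and 8 lower on WD. PWK/PhJ had 5 genes higher and 1 lower, next to 15.1% and 14.5% of all genes tested in that strain. In 129S1/SvImJ, 4 were higher and 2 lower (14.5% and 13.6% of all genes), and in C57BL/6J 4 were higher and 1 lower (14.3% and 11.9%). A/J had 2 higher and 1 lower (4.39% and 4.64%), DBA/2J had none higher and 2 lower (10.2% and 7.77%), and WSB/EiJ none higher and 1 lower (4.97% and 3.97%). No gene was called in CAST/EiJ by limma-voom, where 9.77% of all genes were higher and 9.73% lower. There, 1 of the 10 (Inhba) had an unadjusted p below 0.05 and a higher value, 1 (Inhbe) an unadjusted p below 0.05 and a lower value, and edgeR and DESeq2 each called Inhbe lower. Within cohorts, all 46 differences behind the 23 calls had the sign of the call. The median log2 fold change of the 10 genes was 0.545 in PWK/PhJ, 0.39 in C57BL/6J, 0.35 in A/J, 0.32 in 129S1/SvImJ, 0.15 in CAST/EiJ, -0.12 in WSB/EiJ and -0.07 in DBA/2J, against medians of all genes between -0.011 and 0.017. With upper-quartile scaling, the share of all calls that were higher moved from 51.6% to 67.1% in 129S1/SvImJ and from 48.6% to 59.0% in A/J. Without C57BL/6J CD replicate 2, 5 genes were higher and 1 lower in C57BL/6J, and without C57BL/6J WD replicate 3, 3 were higher and 1 lower.

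**Figure D1:**
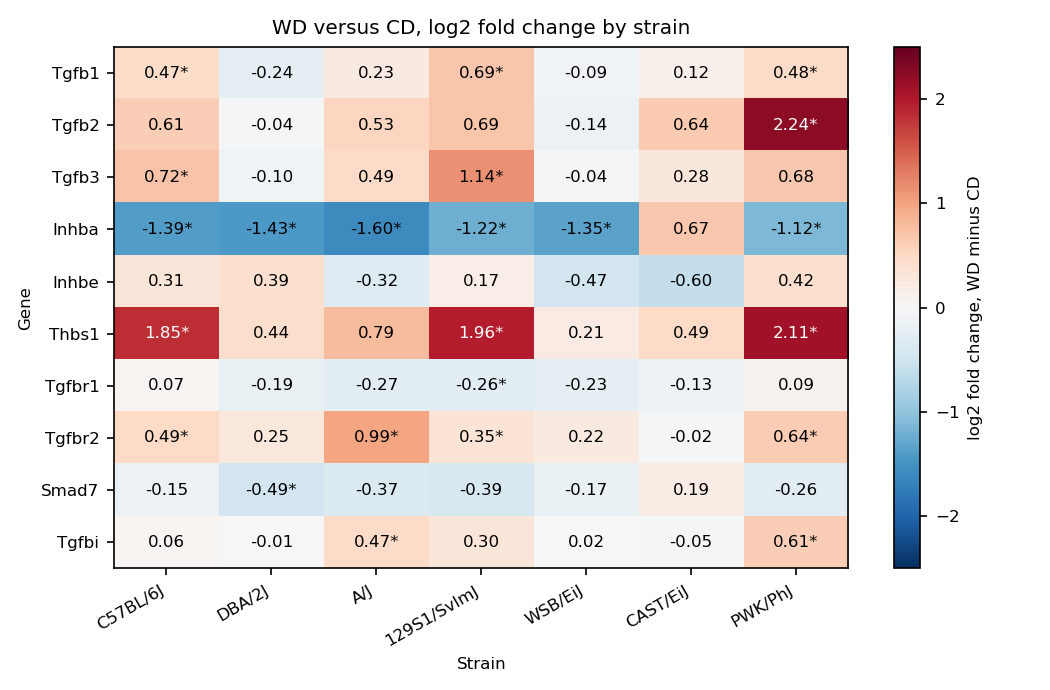
Log2 fold change (WD minus CD) of the 10 genes (rows) in the 7 strains (columns), with color from blue (lower on WD) to red (higher on WD) and an asterisk for an adjusted p below 0.05 by limma-voom. The Inhba row is blue and called in 6 strains and is 0.67 without a call in CAST/EiJ, while the Thbs1 row is above 1.8 in PWK/PhJ, C57BL/6J and 129S1/SvImJ.

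The diet effect differed between the 7 strains for 7 of the 10 genes by an F test in the same fit (37.5% of all genes did). The adjusted p was 6e-05 for Inhba, 0.00019 for Tgfb2, 0.00025 for Tgfb1 and for Tgfbr2, 0.015 for Thbs1, 0.016 for Tgfbi and 0.025 for Tgfbr1. It was 0.087 for Inhbe, 0.1 for Tgfb3 and 0.19 for Smad7. With all mice, Inhbe passed by edgeR (0.044), DESeq2 (0.021) and with quality weights (0.02), and by limma-voom it passed without CAST/EiJ CD replicate 2 (0.034), CAST/EiJ CD replicate 4 (0.035) or DBA/2J CD replicate 3 (0.049). The Thbs1 call was lost with edgeR's quasi-likelihood test (adjusted p = 0.094). Tgfb3 passed without C57BL/6J CD replicate 2 (adjusted p = 0.0013) and, with all mice, with quality weights (0.00066).

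Inhba, the beta A subunit of activin A, was the member with the widest response: it was downregulated on WD in 6 strains. In C57BL/6J, the 8 CD mice ranged from 11.7 to 44.1 CPM with a median of 23.8, and the 8 WD mice from 6.67 to 10.3 CPM with a median of 9.17. Every WD mouse was below every CD mouse, and the log2 fold change was -1.39 ± 0.28 SE (adjusted p = 5.7e-05). In PWK/PhJ, the 6 CD mice ranged from 31.0 to 65.7 CPM (median 52.0) and the 7 WD mice from 15.3 to 29.9 CPM (median 23.7), again with no overlap (log2 fold change -1.12 ± 0.27, adjusted p = 0.00065). The DBA/2J mice also separated by diet, with 22.6 to 66.5 CPM (median 34.2, n = 6) on CD and 10.1 to 18.0 CPM (median 14.7, n = 7) on WD (log2 fold change -1.43 ± 0.28, adjusted p = 9.2e-05). In A/J the 5 CD mice had 26.9, 31.8, 49.5, 51.4 and 63.2 CPM, all above the 6 WD mice (8.21 to 21.8 CPM, median 14.5), and the log2 fold change of -1.60 ± 0.31 (adjusted p = 0.00022) was the lowest of the 7 strains.

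The ranges overlapped by 1 WD mouse in the other called strains. In 129S1/SvImJ, Inhba spanned 19.1 to 40.7 CPM on CD (median 28.6, n = 7) and 8.34 to 19.9 CPM on WD (median 12.4, n = 6), and 5 of 6 WD mice were below all CD mice (log2 fold change -1.22 ± 0.29, adjusted p = 0.00085). WSB/EiJ had the lowest WD level of all 14 groups, 4.18 to 11.8 CPM (median 5.69, n = 6), after 9.07 to 40.9 CPM (median 14.0, n = 6) on CD. Its log2 fold change of -1.35 ± 0.38 (adjusted p = 0.013) lost its call without WSB/EiJ CD replicate 6 (-1.08, adjusted p = 0.074).

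CAST/EiJ stood apart for Inhba. The 7 CD mice ranged from 4.83 to 38.6 CPM (median 13.7) and the 8 WD mice from 16.5 to 32.3 CPM (median 27.1), and the log2 fold change of 0.67 ± 0.28 did not pass the test (adjusted p = 0.076), although it did without CAST/EiJ CD replicate 1 (0.90, adjusted p = 0.016) or CD replicate 4 (0.83, adjusted p = 0.029). The difference between this value and the mean of the other 6 strains did pass, at 2.02 on the log2 scale (adjusted p = 1.3e-06, 14.5% of all genes called for CAST/EiJ), and it stayed below the threshold when any CAST/EiJ mouse was left out (highest adjusted p = 1.7e-05). The cohorts of CAST/EiJ did not show 1 direction: WD minus CD was -0.389 in cohort 1 (1 CD mouse and 3 WD mice), 0.208 in cohort 3 (2 and 2) and 1.098 in cohort 4 (4 and 3). In the 6 strains with a call, all 12 within-cohort differences were below 0, from -2.155 in WSB/EiJ to -0.842 in PWK/PhJ. The order of the strains on WD thus placed CAST/EiJ (25.5 ± 6.07 CPM, SD, n = 8) and PWK/PhJ (23.5 ± 6.33, n = 7) above the other 5, with a gap beyond the spread to A/J (14.6 ± 4.63, n = 6). On CD, PWK/PhJ (50.7 ± 11.6, n = 6) was at the top and CAST/EiJ (18.3 ± 11.4, n = 7) at the bottom, and no neighbours in that order differed beyond their spread.

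**Figure D2:**
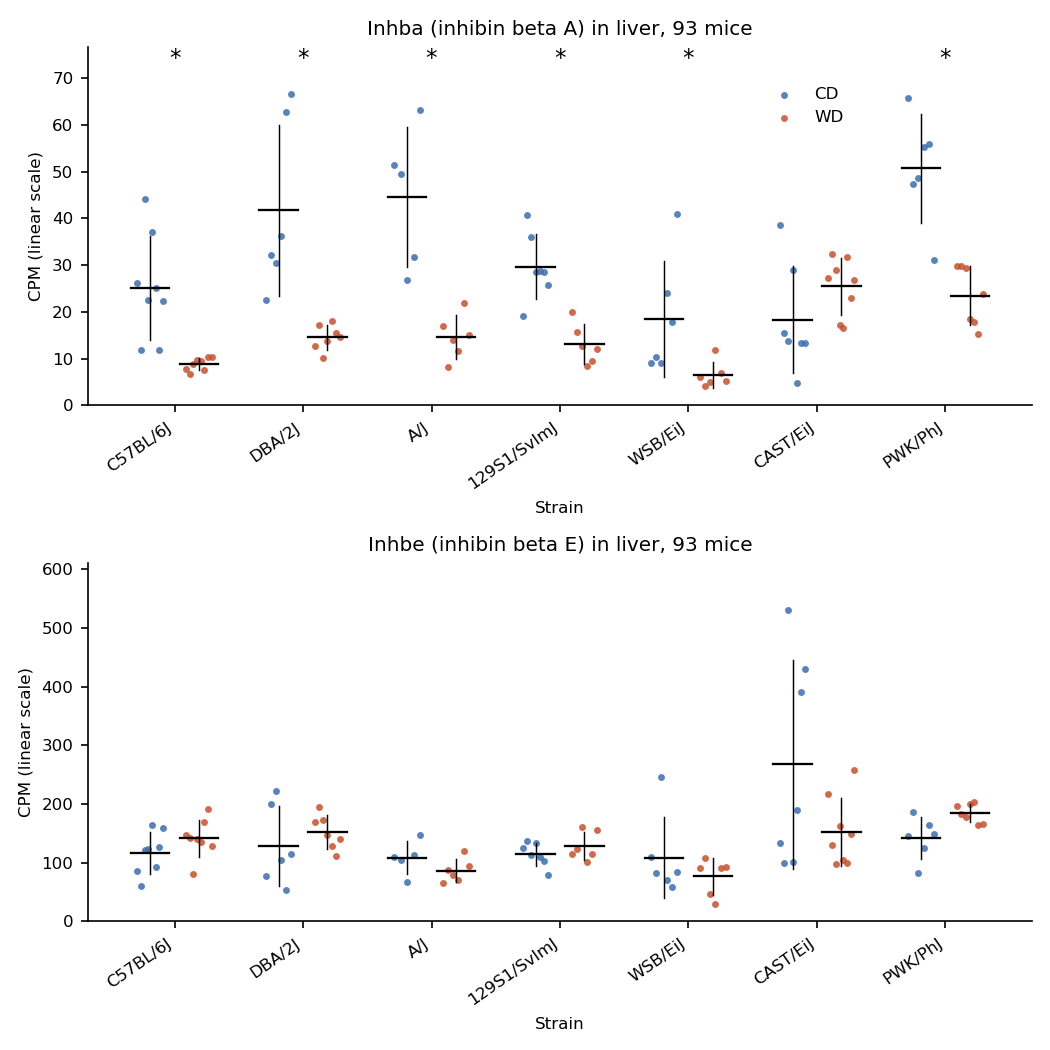
CPM (linear scale) of Inhba (top) and Inhbe (bottom) in each of the 93 mice by strain, CD in blue and WD in red, with the mean (bar), the SD (line) and an asterisk for an adjusted p below 0.05. For Inhba the WD mean is below the CD mean in 6 strains and all WD mice lie within the CD range in CAST/EiJ, and for Inhbe 3 CAST/EiJ mice on CD exceed every other mouse.

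Inhbe, the hepatocyte-enriched beta E subunit, was the most abundant of the 5 ligand genes in all 14 groups and was called in no strain. Its group means ran from 76.3 CPM (WSB/EiJ on WD) to 268 CPM (CAST/EiJ on CD), and log2 fold changes from -0.60 to 0.42. In CAST/EiJ, the 7 CD mice ranged from 99.99 to 530.1 CPM (median 189) and the 8 WD mice from 97.5 to 257 CPM (median 139). The log2 fold change there was -0.60 ± 0.27 (adjusted p = 0.11), and edgeR (-0.82, adjusted p = 0.02) and DESeq2 (-0.83, adjusted p = 0.012) called it, as did limma-voom without CAST/EiJ CD replicate 2 (-0.79, adjusted p = 0.03) or CD replicate 4 (-0.79, adjusted p = 0.03). In PWK/PhJ, WD mice had 164 to 203 CPM (median 182, n = 7) and CD mice 81.5 to 186 CPM (median 147, n = 6), and the value of 0.42 ± 0.30 was not called (adjusted p = 0.3).

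Tgfb1, the TGF-beta isoform made by many cell types, was upregulated on WD in 129S1/SvImJ, PWK/PhJ and C57BL/6J. In 129S1/SvImJ, the 7 CD mice spanned 9.40 to 12.1 CPM (median 10.3) and the 6 WD mice 14.0 to 19.7 CPM (median 17.6), without overlap (log2 fold change 0.69 ± 0.13, adjusted p = 3.9e-05). This effect was larger than the mean of the other 6 strains by 0.53 (adjusted p = 0.016, 6.28% of all genes called), and by 0.49 without 129S1/SvImJ WD replicate 4 (adjusted p = 0.054). In PWK/PhJ, CD mice had 9.25 to 15.2 CPM (median 14.1) and WD mice 13.6 to 21.8 CPM (median 19.3), and 6 of 7 WD mice exceeded all CD mice (0.48 ± 0.13, adjusted p = 0.0022). C57BL/6J went from 10.9 to 19.7 CPM (median 14.1) on CD to 15.9 to 25.5 CPM (median 19.5) on WD (0.47 ± 0.11, adjusted p = 0.00073), with 3 of 8 WD mice above all CD mice. DBA/2J had the lowest value, -0.24 ± 0.14, without a call (adjusted p = 0.25), and it was below the mean of the other strains by a tested difference of -0.56 (adjusted p = 0.013, 7.77% of all genes called), which was -0.48 without DBA/2J CD replicate 4 (adjusted p = 0.053). A/J (0.23), CAST/EiJ (0.12) and WSB/EiJ (-0.09) were not called.

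CAST/EiJ had the lowest Tgfb1 level on either diet, 6.90 ± 0.999 CPM on CD (n = 7) and 7.52 ± 1.43 CPM on WD (n = 8), beyond the spread from the next strain. All 10 genes differed between strains on CD by the F test, as did 93.7% of all genes tested (adjusted p = 1.5e-10 for Tgfb1 and 1.3e-17 for Tgfbr2). Smad7 (0.04) did not pass with quality weights (adjusted p = 0.19). Reads of all strains were mapped to the C57BL/6J genome, so a lower level and a loss of reads at sequence differences cannot be told apart between strains.

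Tgfb2 was the gene with the largest change of the 3 TGF-beta isoforms, and it was upregulated in PWK/PhJ. The 6 CD mice of that strain had 0.360 to 0.929 CPM (median 0.644), and the 7 WD mice 1.44 to 4.45 CPM (median 3.16). No WD mouse overlapped with CD, the log2 fold change was 2.24 ± 0.31 (adjusted p = 2.1e-08), and both cohorts gave it (2.524 and 1.877). It exceeded the mean of the other 6 strains by 1.86 (adjusted p = 5.8e-05, 16.3% of all genes called for PWK/PhJ). In 129S1/SvImJ the groups did not overlap either, with 0.527 to 1.01 CPM (median 0.744) on CD and 1.12 to 1.65 CPM (median 1.19) on WD, but the value of 0.69 ± 0.32 did not pass over all genes (adjusted p = 0.1). C57BL/6J had 0.654 to 4.35 CPM (median 1.03) on CD and 0.888 to 5.39 CPM (median 2.02) on WD (0.61 ± 0.24, adjusted p = 0.052). The highest mouse of each of these groups was the library named above, and without C57BL/6J CD replicate 2 the value was 0.89 with a call (adjusted p = 0.0023). Without C57BL/6J WD replicate 3 it was 0.38 with no call (adjusted p = 0.24). It was also called without CD replicate 6 (0.70, adjusted p = 0.029) or WD replicate 6 (0.67, adjusted p = 0.035), 7 (0.76, adjusted p = 0.01) or 8 (0.71, adjusted p = 0.022). Elsewhere, group medians of Tgfb2 lay between 0.467 and 0.977 CPM, and no strain was called. The log2 fold change was 0.64 ± 0.35 in CAST/EiJ (adjusted p = 0.2) and 0.53 ± 0.42 in A/J (adjusted p = 0.49). It was -0.04 ± 0.33 in DBA/2J and -0.14 ± 0.41 in WSB/EiJ. Tgfb2 shares 124 exon bases with the antisense gene Gm29491, whose median count was 0, and whether counting used the strand is not given in the sources used here.

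Tgfb3 was upregulated in 129S1/SvImJ, where CD mice had 0.298 to 0.925 CPM (median 0.546, n = 7) and WD mice 0.998 to 1.67 CPM (median 1.22, n = 6), without overlap (log2 fold change 1.14 ± 0.34, adjusted p = 0.007). In C57BL/6J, CD mice spanned 0.713 to 8.54 CPM (median 1.08, n = 8) and WD mice 1.28 to 5.57 CPM (median 2.23, n = 8). The log2 fold change of 0.72 ± 0.23 (adjusted p = 0.014) was 1.14 without C57BL/6J CD replicate 2 (adjusted p = 2.8e-06) and 0.52 without C57BL/6J WD replicate 3 (adjusted p = 0.08). The call was lost with 4 of the 8 alternatives to the fit: edgeR (0.28, adjusted p = 0.49), DESeq2 (0.29, adjusted p = 0.48), cohort as a covariate (0.43, adjusted p = 0.18) and a separate fit for each strain (0.72, adjusted p = 0.27). The call was also lost without CD replicate 5 (0.59, adjusted p = 0.058) or CD replicate 8 (0.59, adjusted p = 0.057). Against the mean of the other strains, C57BL/6J differed by 0.31 (adjusted p = 0.59), and by 0.74 without CD replicate 2 (adjusted p = 0.028). PWK/PhJ had 0.784 to 1.38 CPM (median 0.957) on CD and 1.27 to 2.08 CPM (median 1.49) on WD (0.68 ± 0.29, adjusted p = 0.073). Tgfb3 shares 163 exon bases with Gm37804 and 257 with Gm48008, both at a median count of 0.

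**Figure D3:**
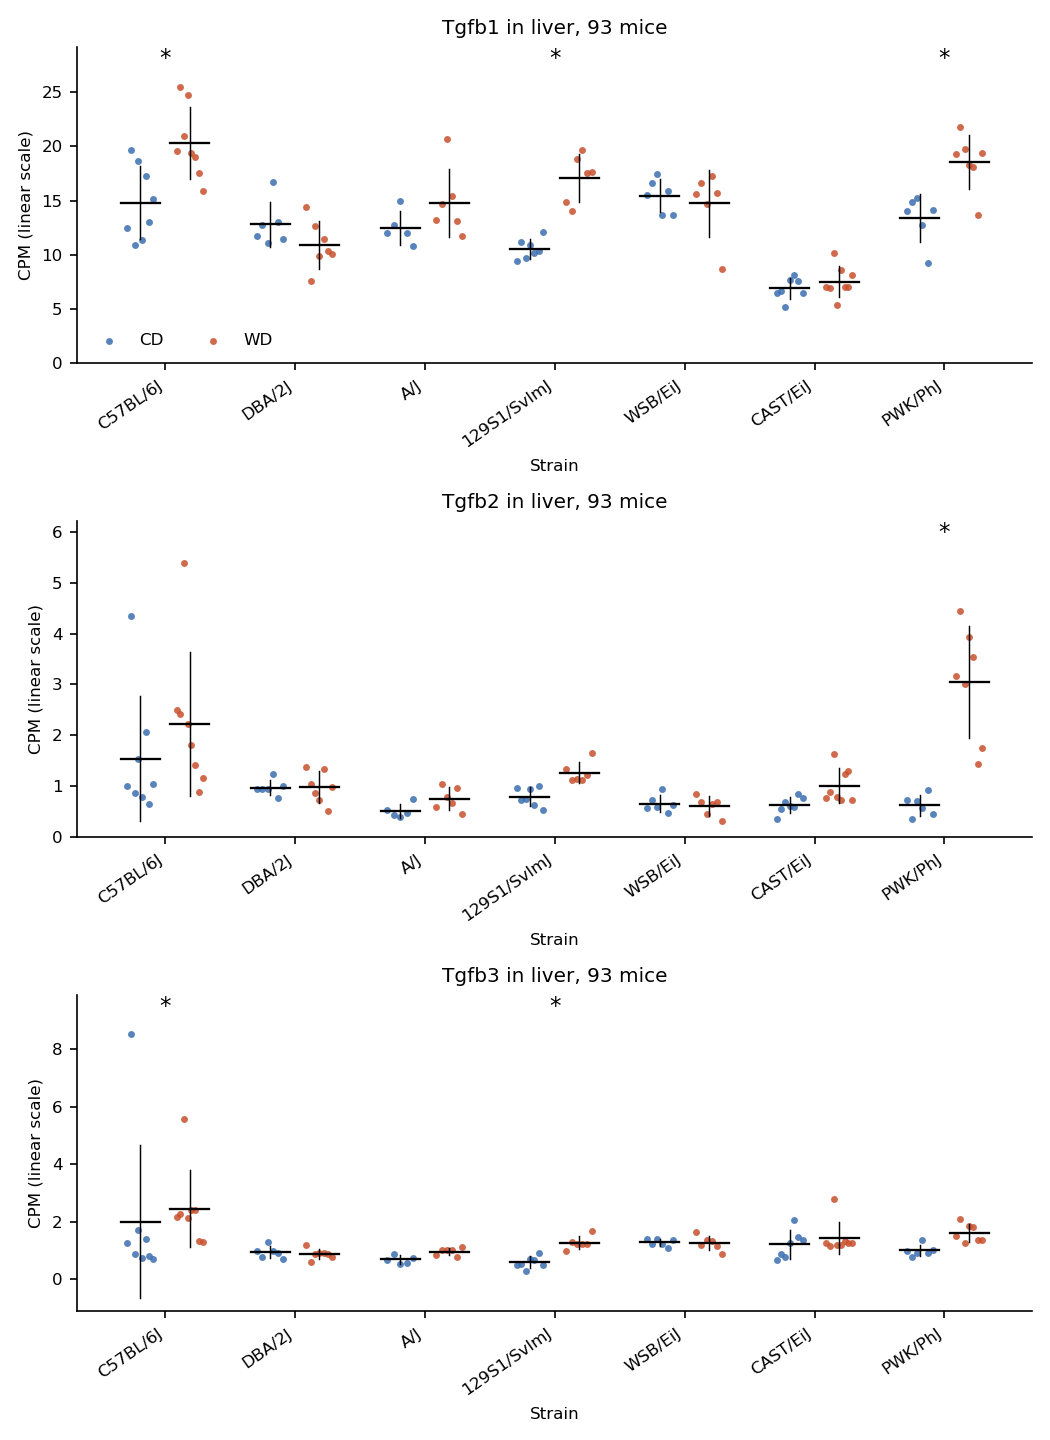
CPM (linear scale) of Tgfb1, Tgfb2 and Tgfb3 in each of the 93 mice by strain, CD in blue and WD in red, with the mean (bar), the SD (line) and an asterisk for an adjusted p below 0.05. PWK/PhJ mice on WD stand out for Tgfb2 (1.44 to 4.45 CPM, against at most 0.929 CPM on CD), and single C57BL/6J mice reach 8.54 CPM for Tgfb3 and 5.39 CPM for Tgfb2.

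Thbs1 encodes thrombospondin 1, a secreted glycoprotein that can release TGF-beta from its latent complex. It was upregulated in PWK/PhJ, 129S1/SvImJ and C57BL/6J. The 6 CD mice of PWK/PhJ had 0.845 to 2.52 CPM (median 1.34) and the 7 WD mice 4.80 to 7.29 CPM (median 6.43), which gave a log2 fold change of 2.11 ± 0.38 (adjusted p = 6.4e-06) without overlap. In 129S1/SvImJ, 0.369 to 1.30 CPM (median 0.485, n = 7) on CD stood against 1.81 to 2.73 CPM (median 2.45, n = 6) on WD (1.96 ± 0.51, adjusted p = 0.0019), also without overlap. C57BL/6J reached the highest levels, 4.10 to 16.8 CPM (median 8.41, n = 8) on WD after 0.669 to 15.4 CPM (median 1.82, n = 8) on CD (1.85 ± 0.29, adjusted p = 4.4e-07). The CD mouse at 15.4 CPM was replicate 2, and the next was at 4.47 CPM. Without replicate 2 the log2 fold change was 2.30 (adjusted p = 4.2e-10), and without C57BL/6J WD replicate 3 it was 1.76 (adjusted p = 1.7e-06). The other 4 strains were not called, with values between 0.21 (WSB/EiJ) and 0.79 (A/J). In CAST/EiJ, 1 of 8 WD mice (replicate 3) had 9.93 CPM and the others at most 1.41 CPM, and that mouse also had the highest sum of mesothelium markers (26.7 CPM, against 5.66 to 9.24 CPM in the other WD mice). With all mice, no strain passed the test against the mean of the other 6, and the nearest was PWK/PhJ (difference of 1.15, adjusted p = 0.053), which passed without PWK/PhJ WD replicate 6 (1.21, adjusted p = 0.041) or CD replicate 4 (1.30, adjusted p = 0.046). Without C57BL/6J CD replicate 2, C57BL/6J passed it (1.30, adjusted p = 0.0079, beside 4.69% of all genes called for C57BL/6J with all mice). Thbs1 shares 208 exon bases with Gm29233, at a median count of 0.

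Tgfbr2, the type II receptor that binds the ligand, was upregulated in 4 strains. A/J gave the largest log2 fold change, 0.99 ± 0.14 (adjusted p = 2.9e-07), where the 5 CD mice (22.5 to 27.8 CPM, median 26.1) lay below all 6 WD mice (36.1 to 69.9 CPM, median 51.8). In PWK/PhJ the CD range of 30.5 to 51.0 CPM (median 41.3) and the WD range of 41.9 to 88.0 CPM (median 66.7) overlapped by 1 WD mouse of 7 (0.64 ± 0.12, adjusted p = 2.8e-05). C57BL/6J went from 28.3 to 53.1 CPM (median 47.9) to 43.7 to 74.7 CPM (median 63.3), with 7 of 8 WD mice above all CD mice (0.49 ± 0.11, adjusted p = 0.00036). Its cohorts were unequal, with WD minus CD of 0.885 in cohort 1 (3 CD and 5 WD mice) and 0.132 in cohort 2 (5 and 3). The 129S1/SvImJ value was smaller, 0.35 ± 0.13 (adjusted p = 0.038), and lost its call when any of 8 of the 13 mice was left out (CD replicates 1, 3, 5 and 6 and WD replicates 3, 4, 5 and 6, highest adjusted p = 0.13) and without the filter on low counts (adjusted p = 0.12).

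A/J and CAST/EiJ differed from the other strains in their Tgfbr2 response. The A/J effect exceeded the mean of the other 6 strains by 0.67 (adjusted p = 0.015, with 0.466% of all genes called for A/J), but not without A/J CD replicate 1 (0.63, adjusted p = 0.058), WD replicate 2 (0.62, adjusted p = 0.05) or WD replicate 4 (0.58, adjusted p = 0.072). CAST/EiJ lay below that mean by a difference of -0.52 (adjusted p = 0.0069), with 17.4 to 24.8 CPM (median 19.2) on CD, 17.1 to 21.6 CPM (median 18.8) on WD and a log2 fold change of -0.02 ± 0.13 (95% interval -0.28 to 0.23). PWK/PhJ exceeded the mean of the others by 0.26 (adjusted p = 0.19), and by 0.36 without PWK/PhJ WD replicate 6 (adjusted p = 0.047). On WD, PWK/PhJ (64.9 ± 14.1 CPM), C57BL/6J (62.1 ± 8.96) and A/J (52.2 ± 12.0) led without a gap beyond the spread between neighbours. DBA/2J (39.5 ± 6.54) and WSB/EiJ (27.7 ± 2.37) followed, each lower than its neighbour above by more than the spread.

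Tgfbr1, the type I receptor, changed little: its group means stayed between 27.7 and 48.5 CPM, and it was called in 129S1/SvImJ only of the 7 strains (log2 fold change -0.26 ± 0.09, adjusted p = 0.017). There, 5 of 6 WD mice (28.5 to 38.9 CPM, median 34.0) were below all 7 CD mice (37.8 to 43.2 CPM, median 39.5). The call was lost with upper-quartile scaling (-0.20, adjusted p = 0.084) and without either of 2 WD mice, replicate 3 (-0.22, adjusted p = 0.057) or replicate 4 (-0.21, adjusted p = 0.076). Similar values in A/J (-0.27), WSB/EiJ (-0.23) and DBA/2J (-0.19) were not called with all mice, but were without A/J WD replicate 5 (-0.29, adjusted p = 0.046), WSB/EiJ CD replicate 3 (-0.29, adjusted p = 0.036) and DBA/2J CD replicate 2 (-0.26, adjusted p = 0.039). PWK/PhJ, at 0.09 ± 0.09 (95% interval -0.08 to 0.26), was above the mean of the other strains by 0.26 (adjusted p = 0.04), a call lost without any of PWK/PhJ CD replicates 2, 5 and 6 and WD replicates 1 and 2 (0.22 to 0.25, highest adjusted p = 0.11). Without C57BL/6J CD replicate 2, C57BL/6J was above that mean as well (0.29, adjusted p = 0.027).

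Smad7, the inhibitory Smad that TGF-beta itself induces and that blocks the type I receptor, was called lower in DBA/2J, from 8.94 to 14.7 CPM (median 11.3, n = 6) on CD to 5.78 to 11.7 CPM (median 8.30, n = 7) on WD. The log2 fold change of -0.49 ± 0.18 (adjusted p = 0.044) lost its call without any of 8 of the 13 mice (CD replicates 1, 2, 3 and 4 and WD replicates 2, 5, 6 and 7, highest adjusted p = 0.14), with upper-quartile scaling (adjusted p = 0.056) and without the filter on low counts (adjusted p = 0.077). In the other 6 strains the values ran from -0.39 in 129S1/SvImJ to 0.19 in CAST/EiJ. The first was called without 129S1/SvImJ CD replicate 6 (-0.48, adjusted p = 0.036). The CAST/EiJ value was above the mean of the other strains by 0.49 (adjusted p = 0.068), and passed without CAST/EiJ CD replicate 3 (0.57, adjusted p = 0.045) or CD replicate 4 (0.56, adjusted p = 0.038). No neighbours in the order of strains differed beyond their spread on either diet.

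Tgfbi, a secreted matrix protein named for its induction by TGF-beta, was upregulated in PWK/PhJ and A/J. The 6 CD mice of PWK/PhJ had 26.8 to 56.1 CPM (median 48.1) and the 7 WD mice 61.0 to 71.5 CPM (median 67.1), without overlap (log2 fold change 0.61 ± 0.14, adjusted p = 0.00043). This exceeded the mean of the other 6 strains by 0.48 (adjusted p = 0.021), and by 0.34 without PWK/PhJ CD replicate 5 (adjusted p = 0.14). In A/J the 5 CD mice (36.1 to 46.1 CPM, median 41.1) also lay below all 6 WD mice (48.7 to 70.3 CPM, median 55.1), but the value of 0.47 ± 0.15 (adjusted p = 0.038) lost its call without any of 7 of the 11 mice (CD replicates 1, 2, 4 and 5 and WD replicates 2, 3 and 4, highest adjusted p = 0.11), without the low-count filter (adjusted p = 0.12) and with cohort as a covariate (adjusted p = 0.064). C57BL/6J had the highest mean on either diet, within the spread of the next strain, 71.8 ± 24.2 CPM on CD and 72.6 ± 16.1 CPM on WD (n = 8 each), and a log2 fold change of 0.06 ± 0.13.

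**Figure D4:**
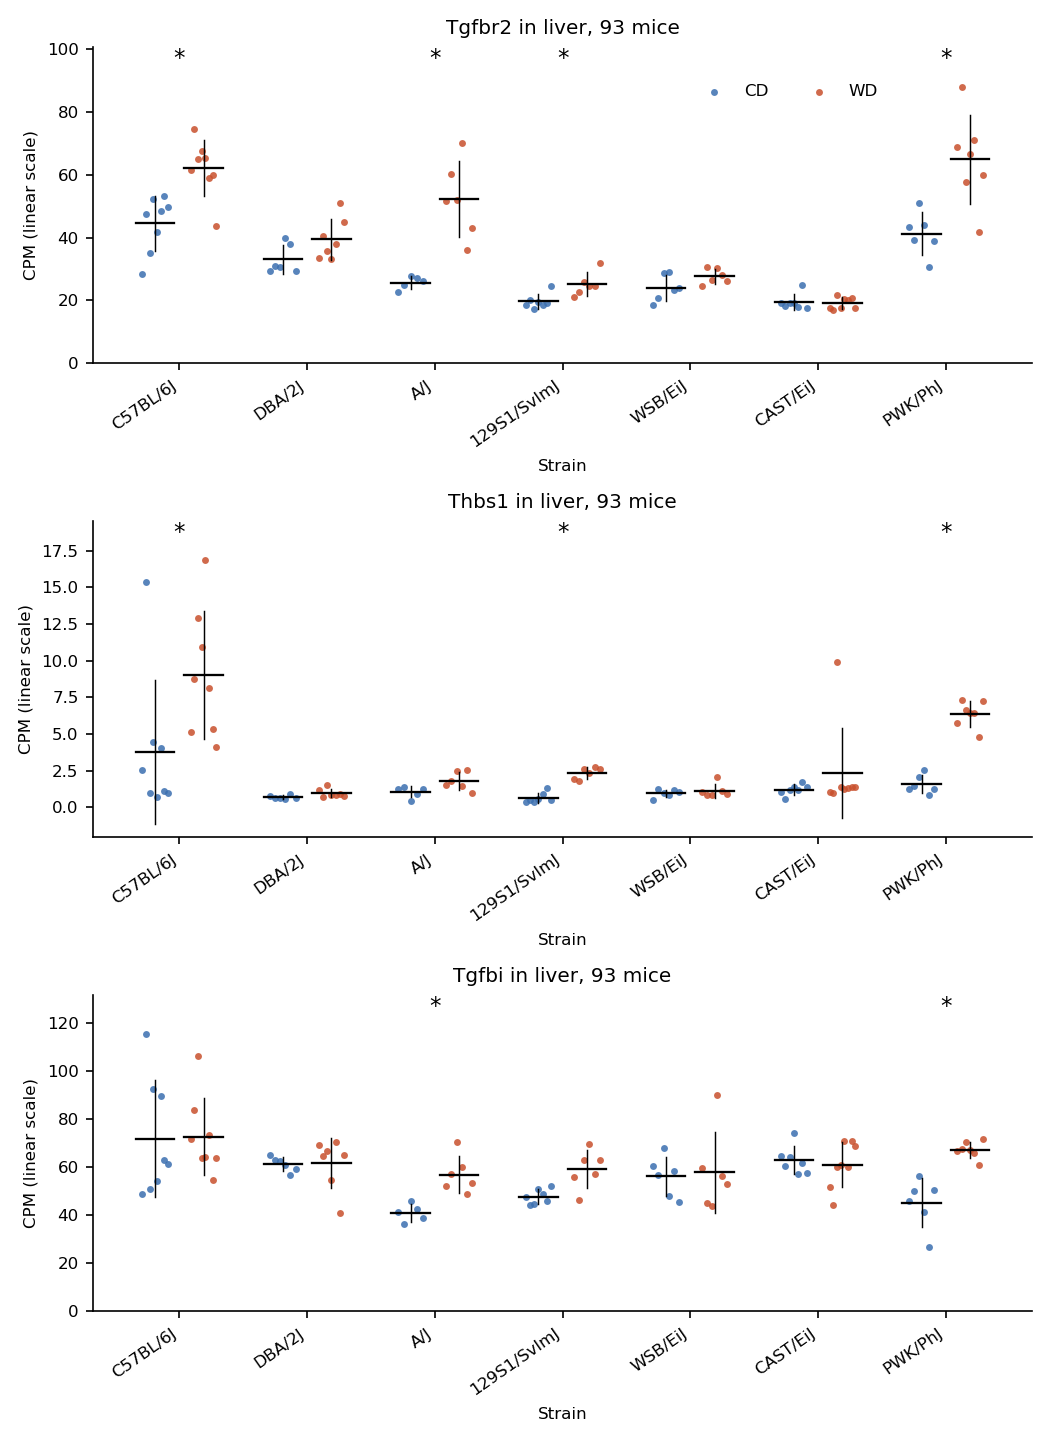
CPM (linear scale) of Tgfbr2, Thbs1 and Tgfbi in each of the 93 mice by strain, CD in blue and WD in red, with the mean (bar), the SD (line, which can reach below 0) and an asterisk for an adjusted p below 0.05. A/J mice separate by diet for Tgfbr2 (at most 27.8 CPM on CD and at least 36.1 CPM on WD), and PWK/PhJ mice for Thbs1 and Tgfbi.

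Per kilobase of exon, the ligands covered a wide range. The median of the 14 group means was 24.1 CPM per kb for Inhbe, 3.29 for Inhba, 2.79 for Tgfb1, 0.366 for Tgfb3 and 0.153 for Tgfb2. The Inhbe model holds an annotated exon that covers the window before the RefSeq start, so its length and this value are uncertain. On the same scale Tgfbi stood at 15.9, Tgfbr1 at 5.41, Tgfbr2 at 3.71, Smad7 at 2.10 and Thbs1 at 0.227 CPM per kb. Between the highest and the lowest group mean, Thbs1 differed by a factor of 14.0, Inhba by 7.76 and Tgfb2 by 5.89, and Smad7 by 1.65.

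Of the other genes of the pathway, 77 of 81 listed were tested. PWK/PhJ had 27 higher and 7 lower, or 35.1% and 9.09% of the 77, beside 15.1% and 14.5% of all genes tested. In 129S1/SvImJ 23 were higher and 14 lower (29.9% and 18.2%, beside 14.5% and 13.6%), and in C57BL/6J 16 and 10 (20.8% and 13%, beside 14.3% and 11.9%). DBA/2J had 2 higher and 16 lower (2.6% and 20.8%, beside 10.2% and 7.77%). CAST/EiJ had 1 and 9 (1.3% and 11.7%, beside 9.77% and 9.73%), A/J 1 and 5 (1.3% and 6.49%, beside 4.39% and 4.64%) and WSB/EiJ 1 and 3 (1.3% and 3.9%, beside 4.97% and 3.97%), so that the lower shares in these 3 strains were near those of all genes. C57BL/6J had 24 higher and 12 lower without CD replicate 2, 14 and 10 without WD replicate 3, and 21 and 13 without both.

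The latent complex and the proteins that open it made a list of 14 genes. Of these, 9 were higher and none lower in PWK/PhJ (15.1% and 14.5% of all genes). In 129S1/SvImJ 9 were higher and 1 lower (14.5% and 13.6%). Ltbp2, a latent TGF-beta binding protein, went from 0.571 to 6.05 CPM in PWK/PhJ (group means, log2 fold change 3.30 ± 0.43, adjusted p = 1.7e-09) and from 0.561 to 2.15 CPM in 129S1/SvImJ (1.95 ± 0.45, adjusted p = 0.00047). Itgb8, part of an integrin that activates TGF-beta, was higher in PWK/PhJ by 1.93 ± 0.38 on the log2 scale (adjusted p = 4.3e-05), and Fbn1, the microfibril protein fibrillin 1, by 1.56 ± 0.24 (adjusted p = 2.5e-07). In C57BL/6J, 3 of 14 were higher with all mice (14.3% of all genes). The number was 9 without CD replicate 2, 1 without WD replicate 3 and 7 without both. The other 4 strains had none called, and their medians ran from -0.099 in DBA/2J to 0.267 in A/J.

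Among 14 matrix and contractile genes known to answer TGF-beta, 9 were higher and 1 lower in C57BL/6J (14.3% and 11.9% of all genes). These C57BL/6J counts were also 9 and 1 without CD replicate 2, without WD replicate 3 and without both. In PWK/PhJ 8 were higher (15.1% of all genes), in 129S1/SvImJ 6 (14.5%) and in A/J 1 (4.39%). CAST/EiJ had 2 of the 14 lower (9.73% of all genes) and DBA/2J 1 (7.77%). Their median log2 fold change was 1.707 in PWK/PhJ and 0.961 in C57BL/6J. Col1a1, the main collagen of scar tissue, went from 3.64 to 67.1 CPM in PWK/PhJ (4.01 ± 0.54, adjusted p = 5.2e-09), from 2.31 to 25.6 CPM in 129S1/SvImJ (3.44 ± 0.60, adjusted p = 5.3e-06) and from 20.3 to 63.1 CPM in C57BL/6J (1.93 ± 0.35, adjusted p = 1.3e-05). A/J, with the largest Tgfbr2 value, had Col3a1 higher (1.44 ± 0.39, adjusted p = 0.0093) and no other gene of this list called.

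The remaining subunits and antagonists of activin did not share the direction of Inhba throughout. Inhbb, the beta B subunit, was higher in C57BL/6J (1.59 ± 0.26, adjusted p = 2e-06), 129S1/SvImJ (1.02 ± 0.33, adjusted p = 0.014) and PWK/PhJ (0.95 ± 0.27, adjusted p = 0.0036), where Inhba was lower. Inhbc, the beta C subunit of hepatocytes, was lower in A/J (-0.65 ± 0.13, adjusted p = 0.00057) and PWK/PhJ (-0.31 ± 0.12, adjusted p = 0.046). Fst, which encodes the activin-binding protein follistatin, was lower in CAST/EiJ (from 15.4 to 4.86 CPM, -1.54 ± 0.39, adjusted p = 0.0022) and in DBA/2J (from 7.54 to 2.55 CPM, -1.36 ± 0.50, adjusted p = 0.048). Of the 5 antagonists of TGF-beta or activin tested, 2 were higher and none lower in PWK/PhJ (15.1% and 14.5% of all genes). In 129S1/SvImJ 1 was higher and 1 lower (14.5% and 13.6%). Only lower calls were found in DBA/2J (2, beside 7.77%), CAST/EiJ (1, beside 9.73%) and C57BL/6J (1, beside 11.9%). A/J and WSB/EiJ had none called. Acvr2a, a type II activin receptor, was lower in 129S1/SvImJ, A/J, C57BL/6J and DBA/2J, by values from -0.39 to -0.22.

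The bone morphogenetic protein (BMP) arm signals through Smad1, Smad5 and Smad9. Of its 20 genes tested, 8 were lower and 1 higher in DBA/2J (7.77% and 10.2% of all genes). In 129S1/SvImJ 6 were lower and 3 higher (13.6% and 14.5%), and in C57BL/6J 5 and 2 (11.9% and 14.3%). Without C57BL/6J CD replicate 2, 7 were lower and 2 higher there. PWK/PhJ had 4 and 4 (14.5% and 15.1%) and WSB/EiJ 3 and 1 (3.97% and 4.97%). CAST/EiJ had 2 lower (9.73%), A/J 1 lower (4.64%), and neither had any higher (9.77% and 4.39%). In DBA/2J, 3 of 6 markers of the sinusoidal endothelium were lower as well: Clec4g (-0.39), Fcgr2b (-0.26) and Bmp2 (-0.53), the last of which is also in the BMP list, and the part of these cells in the result was not tested. Hamp, the iron hormone hepcidin and a BMP target, was lower in 129S1/SvImJ (-2.23 ± 0.45, adjusted p = 7.4e-05), C57BL/6J (-1.75 ± 0.41, adjusted p = 0.00063), PWK/PhJ (-1.50 ± 0.45, adjusted p = 0.0067) and DBA/2J (-1.19 ± 0.43, adjusted p = 0.043). Bmp7 was higher in 5 strains, most in PWK/PhJ (3.62 ± 0.56, adjusted p = 3e-07). Of 14 Smads and Smad regulators, Pmepa1, a feedback inhibitor, was higher in PWK/PhJ (1.17 ± 0.25, adjusted p = 0.00011) and 129S1/SvImJ (0.84 ± 0.24, adjusted p = 0.0055), and Smad4, the shared Smad, was lower in 129S1/SvImJ (-0.28 ± 0.06, adjusted p = 0.00049), CAST/EiJ (-0.26 ± 0.06, adjusted p = 0.0012) and DBA/2J (-0.25 ± 0.06, adjusted p = 0.003).

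**Figure D5:**
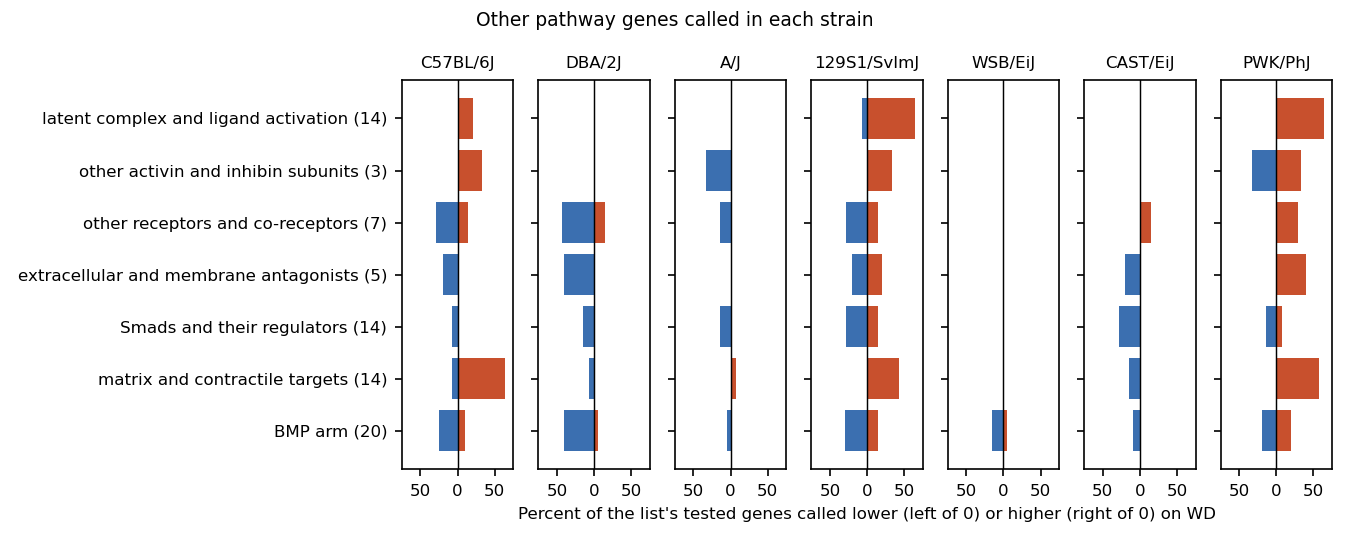
Share of the tested genes in each of 7 lists (rows, with the number tested) that were called higher (red, right of 0) or lower (blue, left of 0) on WD in each strain, in percent. The latent complex and matrix lists extend to the right in PWK/PhJ, 129S1/SvImJ and C57BL/6J. The BMP arm extends to the left in every strain, farthest in DBA/2J, and also to the right in all but CAST/EiJ and A/J. In PWK/PhJ both sides are equal (4 genes lower and 4 higher of 20). The left bars of CAST/EiJ (2 of 20) and A/J (1 of 20) are near the shares of all genes called lower (9.73% and 4.64%).

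Markers of other cells moved with some of these results. Of all genes, 14.3% to 15.1% were higher and 11.9% to 14.5% lower in PWK/PhJ, 129S1/SvImJ and C57BL/6J. In A/J, WSB/EiJ, CAST/EiJ and DBA/2J, 4.39% to 10.2% were higher and 3.97% to 9.73% lower. In the 3 strains with higher Tgfb1 and Thbs1, 8 of 9 monocyte and macrophage markers were higher: their sum had medians of 134 and 513 CPM on CD and WD in PWK/PhJ (83.4 to 166 and 253 to 711), 96.8 and 267 CPM in 129S1/SvImJ (73.7 to 101 and 188 to 321) and 192 and 350 CPM in C57BL/6J (141 to 954 and 194 to 895). Without CD replicate 2, the C57BL/6J sums on CD ran from 141 to 391 CPM. Without WD replicate 3, those on WD ran from 194 to 523 CPM. The markers called there were not counted again without these libraries. In C57BL/6J the ninth marker, Cd9, was lower, from 42.4 to 28.9 CPM (group means, log2 fold change -0.61 ± 0.14, adjusted p = 0.00077). DBA/2J had none of the 9 called, A/J 2, CAST/EiJ 2 and WSB/EiJ 4. Of 8 stellate cell markers, 2 were higher in each of PWK/PhJ, 129S1/SvImJ and C57BL/6J and 1 in each of A/J and CAST/EiJ. None was lower in any strain. Their median sum was 183 and 220 CPM in PWK/PhJ (108 to 194 and 210 to 258), the only strain without overlap between diets. In A/J it was 221 and 262 CPM (178 to 244 and 244 to 275). It was 240 and 248 CPM in 129S1/SvImJ and 211 and 233 CPM in C57BL/6J. The median was lower on WD in DBA/2J (298 and 279 CPM), WSB/EiJ (275 and 265 CPM) and CAST/EiJ (189 and 178 CPM). Cholangiocyte markers were higher for 4 of 5 genes in PWK/PhJ, from a median of 7.81 to 18.2 CPM (5.47 to 8.82 and 9.33 to 26.9). Markers of hepatocytes, the main source of Inhbe, were lower for 1 to 4 of 6 genes in every strain, CAST/EiJ included. All 5 T cell markers were higher in 129S1/SvImJ, with sums of 1.01 and 2.65 CPM. Of 6 markers of the sinusoidal endothelium, 3 were lower in C57BL/6J and DBA/2J, 2 in 129S1/SvImJ and PWK/PhJ and 1 in WSB/EiJ, while Lyve1 was higher in C57BL/6J and 129S1/SvImJ. Of 6 Kupffer cell markers, 2 were higher in 129S1/SvImJ (14.5% of all genes) and none was lower in any strain. In PWK/PhJ (15.1%), C57BL/6J (14.3%) and CAST/EiJ (9.77%) 1 of the 6 was higher. Summed markers of Kupffer cells, sinusoidal endothelium, platelets, B cells and mesothelium overlapped between diets in every strain. No marker was at 0 throughout a strain, and the part of these cells in the results above was not tested.

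Across the 93 mice, the genes most like each member by Pearson correlation of log2 CPM (among 12372 genes whose log2 CPM averaged 0 or more) are given as a description, since all mice share strain and diet effects. Tgfb2 was most like Col3a1 and Fbn1 (both 0.844) and Col6a3 (0.838), and Thbs1 like Col1a1 (0.874), Sdcbp (0.861) and S100a6 (0.851). Tgfb3 was nearest to Aebp1 (0.872), Gpx3 (0.835) and Pcolce (0.830), and Tgfbi to Pam (0.819), Bgn (0.808) and Pcolce (0.759). Tgfb1 was most like Fxyd5 (0.893), Cxcl16 (0.873) and Abcg3 (0.869), and Tgfbr2 like Wdr1 (0.863), Trim30a (0.851) and Ehd4 (0.842). Inhba had lower values, with Shroom1 (0.814), Camk4 (0.737) and Sephs1 (0.711), as did Tgfbr1 with Sestd1 (0.729), Pak2 (0.676) and Pxdn (0.674). Inhbe was closest to Gm47528 (0.671), Pex11a (0.658) and Tbl1xr1 (0.652). Smad7 went with Id1 (0.591), Bambi (0.581) and Id3 (0.566), genes that TGF-beta or BMP signals are known to induce.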

How the data were processed

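Liver RNA of 93 male mice (14 groups by strain and diet, from the labels) was sequenced, and the authors mapped reads with STAR (2.7.1a, per the submitters' processing notes) to GRCm38. The deposited values are raw counts per gene, and the strand setting of counting is not given in the sources used here. The 4 rows that name no gene were removed.

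Genes were kept by filterByExpr (minimum count 10). Counts were scaled by TMM (factors 0.81 to 1.27) and fitted in one limma-voom model of 14 group means (limma 3.58.1, edgeR 4.0.16, R 4.3.3), with Benjamini-Hochberg adjustment over the 19110 genes of each contrast. edgeR's quasi-likelihood test, DESeq2 (1.42.0), other scaling, no filter, cohort, RNA integrity, separate fits, quality weights and leaving out each mouse were alternatives. Leaving out C57BL/6J CD replicate 2, and the alternatives for other pathway genes, were chosen after seeing the data. The code was tested on simulated data.

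Strains in an order of levels differed beyond their spread where means differed by at least the larger SD. Likeness used log2 CPM with a prior count of 2. Named are all 10 genes, up to 4 called genes per other list and strain by size, the 3 most alike genes and overlapping genes, and a gene so named is also given in its other strains. Members and lists were chosen with earlier results of these data known. Nothing in the labels says more than that each library was a separate mouse.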

Additional observations from a re-analysis of the deposited data

Results flagged for a closer look

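In 19 of 140 groups of a gene, 1 mouse lay apart from the rest of its group by Dixon's test at the 95% level. For normally distributed values, chance gives this in about 1 of 20 groups. CPM on the linear scale need not be so distributed, and groups of different genes share libraries, so the 2 rates cannot be compared directly. The 19 values came from 11 libraries. C57BL/6J CD replicate 2 was the highest of 8 for Tgfb2 (4.35 CPM), Tgfb3 (8.54 CPM), Thbs1 (15.4 CPM) and Smad7 (23.7 CPM). C57BL/6J WD replicate 3 was the highest for Tgfb2 (5.39 CPM), Tgfb3 (5.57 CPM) and Tgfbr1 (59.5 CPM). CAST/EiJ WD replicate 3 was the highest for Tgfb3 (2.81 CPM) and Thbs1 (9.93 CPM). WSB/EiJ WD replicate 4 was the highest for Inhba (11.8 CPM), Thbs1 (2.06 CPM) and Tgfbi (89.8 CPM).

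The remaining 7 libraries were each apart for 1 gene. Tgfb1 was highest in DBA/2J CD replicate 4 (16.8 CPM) and lowest in WSB/EiJ WD replicate 6 (8.65 CPM). Inhbe was highest in WSB/EiJ CD replicate 3 (246 CPM). Tgfbr1 was lowest in CAST/EiJ CD replicate 2 (28.9 CPM) and highest in A/J WD replicate 5 (31 CPM). Tgfbr2 was highest in CAST/EiJ CD replicate 6 (24.8 CPM) and in 129S1/SvImJ CD replicate 7 (24.6 CPM).

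The diet effect differed between the 7 strains by limma's F test for Inhba (adjusted p = 6e-05), Tgfb2 (0.00019), Tgfb1 (0.00025), Tgfbr2 (0.00025), Thbs1 (0.015), Tgfbi (0.016) and Tgfbr1 (0.025).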

How the results depend on the processing

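Of 184 recomputed values of the 23 called comparisons, 174 kept their direction and their call under the 8 alternatives to the fit, and 10 kept their direction without the call. Every call was kept with RNA integrity as a covariate and with quality weights. No value of a called comparison changed sign in these. Members called changed in CAST/EiJ from 0 to 1 with edgeR, DESeq2 and quality weights, in DBA/2J from 2 to 1 with upper-quartile scaling and with no filter, in A/J from 3 to 5 and in WSB/EiJ from 1 to 2 with quality weights. Leaving out 1 A/J mouse gave 2 to 4 members there. Other pathway genes called in CAST/EiJ were 16 with edgeR, 17 with DESeq2, 6 with no filter and 4 with separate fits (10 as reported). In A/J they were 10 with DESeq2, 3 with no filter, 17 with separate fits, 20 with quality weights and 3 to 7 with 1 mouse left out (6 as reported). In WSB/EiJ they were 7 with cohort and 11 with quality weights (4 as reported), and in C57BL/6J 15 with separate fits (26 as reported). The cause was not tested. With 1 mouse left out, 11 of the 47 values that were not called turned sign for at least 1 mouse, and 0 of the 23 called values did. Under the alternatives to the fit, and without C57BL/6J CD replicate 2, the sign turned in these values, none of them called: Tgfb2 in DBA/2J (0.0097 with edgeR, 0.0146 with DESeq2), Tgfbi in DBA/2J (0.0093 with edgeR, 0.0149 with DESeq2, 0.0027 with upper-quartile scaling, 0.0054 with quality weights), Tgfbr2 in CAST/EiJ (0.0011 with upper-quartile scaling), Tgfbi in WSB/EiJ (-0.0473 with quality weights) and Smad7 in C57BL/6J (0.0121 without CD replicate 2). No paired analysis was possible because the labels give no replicate numbers that tie a CD mouse to a WD mouse. Few reads limit Tgfb2, Tgfb3 and Thbs1, whose group means were often below 2 CPM.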
